A study of Rattus norvegicus with 9 samples.

Results

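The genes described here are 40 named genes that carry, restrain or answer signals through NF-kB and the Toll-like receptors, of which 39 had a row among the 34267 genes of the deposited expression table and Nos2 was not analysed here. They were taken by gene symbol. They comprise 6 receptors, 14 adaptors and kinases, 3 IkB kinases, 5 NF-kB subunits, 7 inhibitors and feedback regulators and 5 target genes. RNA was sequenced from primary cultures of wild-type rat cartilage progenitor cells, taken from condylar cartilage, in 9 libraries of 3 groups. The P9 group (n = 3) held cells grown to passage 9, used as a model of replicative senescence. The FFSS group (n = 3) held cells of passage 3 under flow fluid shear stress, used as a model of mechanically induced degeneration, with no stated dose or duration. The P3 group (n = 3) held cells of passage 3 and was the control of both. No label tells if the 3 replicates of a group were separate cultures or rats. The p-values therefore measure the spread between these samples only, which may be technical.

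NF-kB is a family of dimeric transcription factors that, in resting cells, are held outside the nucleus by IkB proteins. Toll-like receptors and receptors of tumour necrosis factor and interleukin 1 activate the IkB kinases through adaptors such as Myd88 and the Traf proteins. The IkB is then degraded, and the freed dimers enter the nucleus and bind kappa-B sites in DNA. Several genes they switch on encode inhibitors of the same pathway, which makes those genes standard transcript readouts of its activity. In cartilage the pathway is known for driving chemokines and matrix-degrading enzymes during joint inflammation. Transcript levels do not measure the location of the proteins or their binding to DNA, on which the activity of the pathway rests.

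Promoter sequences of 32 of the 40 members were found in RefSeq, assembly GRCr8. In the 250 bases before the annotated start, 12 of the 32 windows (37.5%) held at least 1 match to the kappa-B consensus on either strand. The share was 3.54% of all 33469 windows of the same length and 4.38% of the 9637 windows of tested genes. A match describes letters in the window, not binding. The genes with a match were Bcl3, Irak3, Nfkb2, Nfkbia, Nfkbie, Nfkbiz, Rel, Tlr2, Tnfaip3, Tnip1, Traf3 and Vcam1. Among tested members with a window, 9 of the 21 called higher in FFSS than in P3 libraries held a match, and 2 of the 9 not called did. Of those called higher, Tlr2, Tlr3, Map3k8 and Bcl3 were tested only because of their FFSS libraries, and Tlr2 and Bcl3 held a match. Windows are shown for 6 of the 9 members that both held a match and were called higher, namely feedback regulators, a receptor and a subunit. Irak3 and Tnip1 held a match and were not called, and other members rose with no match in their window. The windows shown therefore do not tell if a match goes with a rise. Each is written 5′ to 3′ on the strand of the gene and ends at the base before its start, with the matches in capitals.
Nfkbia: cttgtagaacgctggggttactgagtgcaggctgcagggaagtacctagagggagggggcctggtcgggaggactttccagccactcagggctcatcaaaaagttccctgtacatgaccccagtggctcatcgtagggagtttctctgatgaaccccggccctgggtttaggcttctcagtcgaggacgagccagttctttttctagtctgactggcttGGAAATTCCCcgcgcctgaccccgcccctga
Nfkbiz: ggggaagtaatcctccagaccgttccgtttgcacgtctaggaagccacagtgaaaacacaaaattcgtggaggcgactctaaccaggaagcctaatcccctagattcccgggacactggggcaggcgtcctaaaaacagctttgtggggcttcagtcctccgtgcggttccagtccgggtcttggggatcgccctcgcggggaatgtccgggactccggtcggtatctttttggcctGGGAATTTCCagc
Tnfaip3: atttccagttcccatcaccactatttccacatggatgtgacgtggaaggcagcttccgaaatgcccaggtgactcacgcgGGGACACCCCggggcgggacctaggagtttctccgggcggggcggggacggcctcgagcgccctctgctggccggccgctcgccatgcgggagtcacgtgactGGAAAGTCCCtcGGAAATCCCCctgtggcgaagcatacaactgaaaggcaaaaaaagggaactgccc
Tlr2: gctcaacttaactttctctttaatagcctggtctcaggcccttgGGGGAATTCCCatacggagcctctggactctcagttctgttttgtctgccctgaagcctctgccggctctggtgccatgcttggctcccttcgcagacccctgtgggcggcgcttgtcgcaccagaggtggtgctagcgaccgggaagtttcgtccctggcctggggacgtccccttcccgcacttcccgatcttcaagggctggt
Rel: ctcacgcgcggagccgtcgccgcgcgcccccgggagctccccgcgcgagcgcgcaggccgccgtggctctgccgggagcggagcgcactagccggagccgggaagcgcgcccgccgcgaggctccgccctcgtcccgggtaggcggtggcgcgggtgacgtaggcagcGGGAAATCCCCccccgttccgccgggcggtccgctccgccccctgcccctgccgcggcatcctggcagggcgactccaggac
Bcl3: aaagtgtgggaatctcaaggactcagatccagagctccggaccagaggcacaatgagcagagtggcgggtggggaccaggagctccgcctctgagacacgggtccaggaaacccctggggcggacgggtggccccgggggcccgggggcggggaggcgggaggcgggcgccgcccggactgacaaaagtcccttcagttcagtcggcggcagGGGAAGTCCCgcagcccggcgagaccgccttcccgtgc
The windows lay at chr6:78597073-78597322 for Nfkbia, chr1:15543980-15544229 for Tnfaip3, chr2:171504558-171504807 for Tlr2, chr14:101921939-101922188 for Rel and chr1:88613556-88613805 for Bcl3, all on the minus strand, and at chr11:58251471-58251720 for Nfkbiz on the plus strand. The match of Nfkbiz began 13 bases before the start, that of Nfkbia 31 bases and that of Bcl3 38 bases before it. Tnfaip3 held 3 matches, which began 170, 67 and 55 bases before its start. In Tlr2 and in Rel, 2 matches overlapped, shifted by 1 base.

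**Figure D1:**
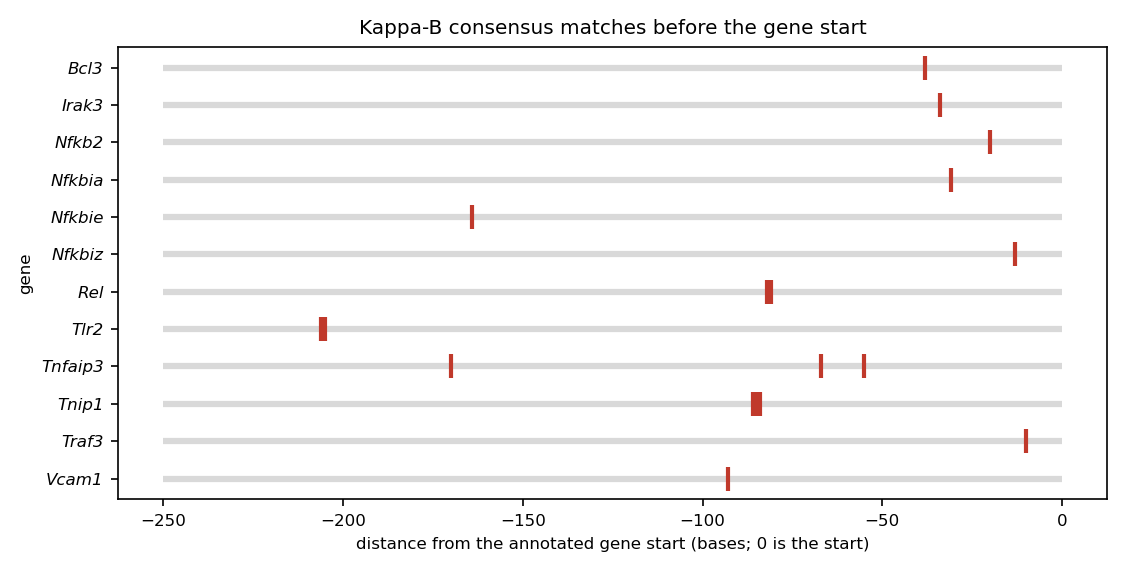
Position of each kappa-B consensus match (red bar, at the first base of the match) in the 250 bases before the annotated start (grey line) of the 12 members with a match, in bases from the start. In 7 of the 12 genes, a match began within 60 bases of the start.

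Between 13264930 and 15323790 fragments per library were assigned to genes. At that depth, 1 fragment on a gene of 1 kilobase was worth 0.0619 to 0.0733 FPKM (fragment counts that the authors divided by gene length and a library scale before depositing them). Mitochondrial transcripts took 2.31 to 2.56% of fragments in P9, 2.96 to 3.75% in FFSS and 2.12 to 2.32% in P3 libraries. FFSS replicate 1 was less like its own group than the other FFSS libraries were: across genes its Pearson r was 0.915 and 0.947 with FFSS replicates 2 and 3, and 0.936 to 0.945 with the P3 libraries. These r values describe libraries, and genes are not independent replicates. Markers of the labelled cell type were detected but did not move together. Of 7 tested chondrogenic markers, of which Prg4 and Sox5 passed the filter on low values only through FFSS libraries, 1 was called higher and 2 lower in P9 than in P3, and 3 higher and 2 lower in FFSS than in P3. Of 9 tested mesenchymal markers, 1 was called higher and 1 lower in P9, and 2 higher and 2 lower in FFSS. Thy1 stood at 823 to 1196 FPKM in P9, 1296 to 1437 FPKM in FFSS and 824 to 949 FPKM in P3 libraries, Sox9 at 5.01 to 7.997, 9.81 to 15.3 and 4.06 to 4.79 FPKM, and Acan at 499 to 609, 29.3 to 48.2 and 122 to 135 FPKM in the same order. Acan and Mcam were called higher and Col11a1, Sox6 and Eng lower in P9 than in P3, while Thy1, Eng, Sox5, Sox6 and Sox9 were called higher and Acan, Col11a1, Fn1 and Mcam lower in FFSS than in P3. Col2a1, the main collagen of mature cartilage, was nearly absent, with means of 0.0733 FPKM in P9, 0.175 FPKM in FFSS and 0.828 FPKM in P3 libraries.

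Of the 39 members with a row, 37 passed the filter of at least 1 FPKM in at least 3 libraries, as did 13059 of all genes, and were tested with limma on log2(FPKM + 1). Tnf and Vcam1 did not pass it. Tlr2, Tlr3, Map3k8 and Bcl3 passed only through their FFSS libraries, so their difference from the other groups follows in part from the filter. A fold change is given as the difference of log2(FPKM + 1), which understates the change of a gene near 1 FPKM, and a call is an adjusted p under 0.05. The strand setting of the counting is not given in the sources used here, so fragments of a gene and of an overlapping antisense gene cannot be told apart.

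The comparison of FFSS with P3 libraries asks what shear stress did to the pathway in cells of the same passage. Under shear stress most members stood higher, and the largest rises were those of genes encoding regulators that feed back on the pathway: Nfkbiz, Nfkbia and Tnfaip3, and the receptor genes Tlr2 and Cd14. Of the 37 tested members, 26 (70.3%) were called higher, where 11.4% of all tested genes were higher, and 0 were called lower, where 10.4% of all tested genes were lower; 21.8% of all tested genes were called in either direction. For the lower direction, limma gave 0 members at an unadjusted p under 0.05 and voom called 0. Without the 4 members that passed the filter only through FFSS, 22 of 33 were called higher. The members were chosen with earlier results of these data known, so their shares are not independent of the data. The median log2 fold change of the 37 was 0.75, with a range of -0.20 to 3.87, against -0.01 over all tested genes. In 29 members all FFSS libraries lay above all P3 libraries (20.1% of all tested genes), and in Traf2 all lay below (22.3%). By role, the members called higher were 5 of 6 receptors, 7 of 14 adaptors and kinases, 1 of 3 IkB kinases, 5 of 5 subunits, 6 of 7 inhibitors and feedback regulators, and 2 of 2 tested targets. Leaving out FFSS replicate 1 gave 26 members called higher (19.3% of all genes then tested), and leaving out FFSS replicate 3 gave 15 (5.55%). Leaving out P3 replicate 1 or 2 gave 16, where 5.09% and 5.67% of all genes then tested were higher. Without FFSS replicate 1, Tnfrsf1b, Map3k14 and Ikbkb were called, Nfkb2 was not, and Tlr3 and Map3k8 fell below the filter. With each library rescaled to the same total FPKM, 19 were called higher and 0 lower, where 8.49% and 15.0% of all genes then tested were. The calls of Tlr3, Myd88, Traf3, Ripk2, Birc2, Nfkb2 and Rela were then lost (adjusted p of 0.0504 to 0.0904). With only the FFSS and P3 libraries fitted, the calls of Tlr3, Traf3, Ripk2, Birc2 and Nfkb2 were lost (adjusted p of 0.0505 to 0.0975). Ripk2, Birc2 and Nfkb2 were not called with no filter (adjusted p of 0.0740 to 0.0871), Ripk2 not with voom (adjusted p = 0.0505), and Birc2 and Nfkb2 not without the expression trend (adjusted p of 0.0531 and 0.0507).

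**Figure D2:**
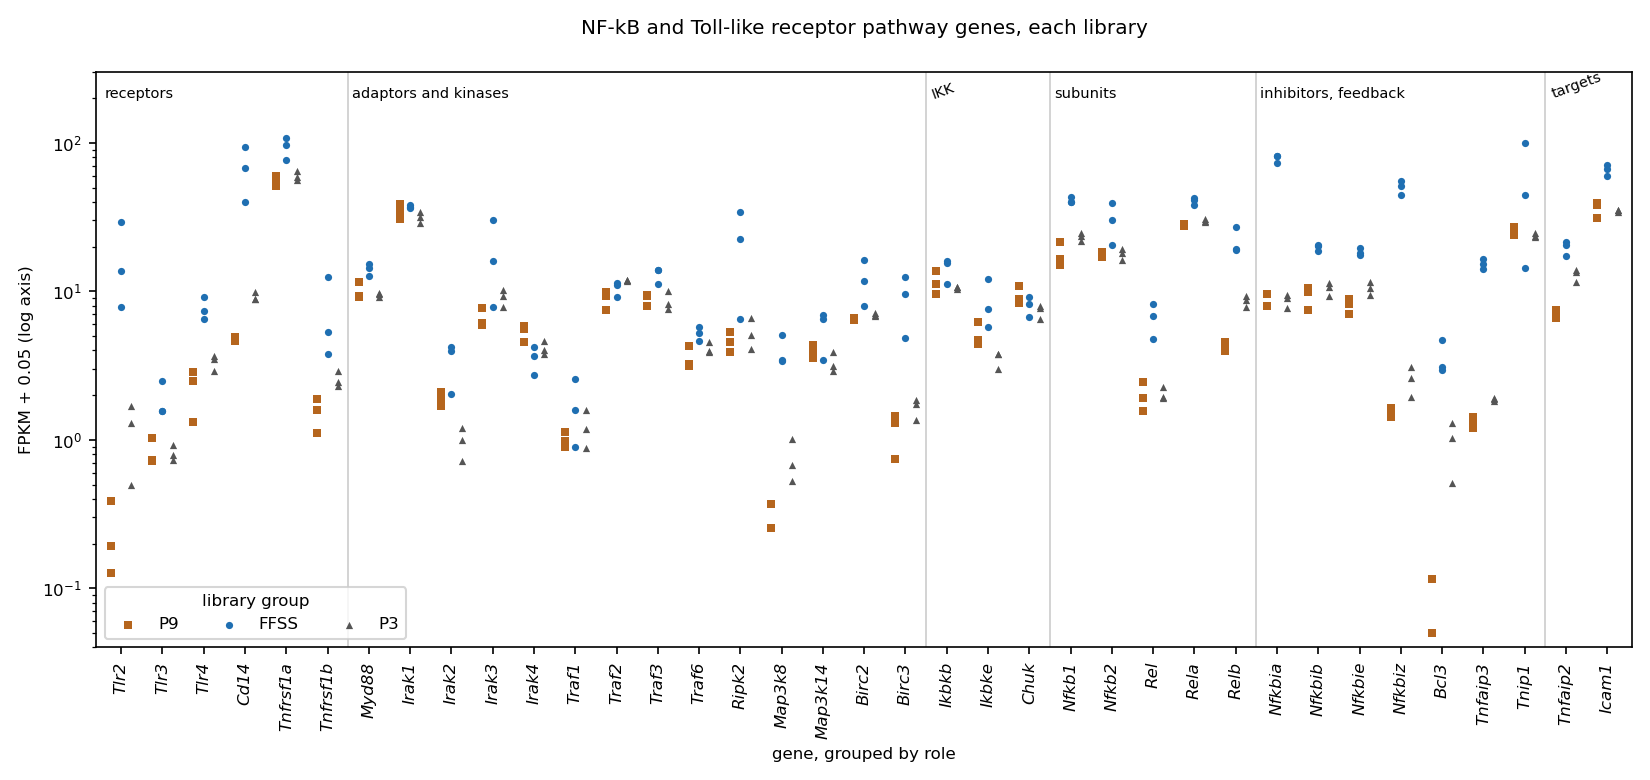
FPKM + 0.05 on a log axis of the 37 tested members in each of the 9 libraries (P9 squares, FFSS circles, P3 triangles), with genes grouped by role and separated by grey lines. For Nfkbia, Nfkbiz and Tnfaip3 the FFSS circles lie far above both other groups and close together, while for Tnip1, Ripk2 and Irak3 they spread widely.

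Among the receptors, Tlr2, which binds bacterial lipoproteins (chr2:182840727-182846061, minus strand, Rnor_6.0), stood at 0.339, 0.0759 and 0.143 FPKM in the P9 libraries, 29.4, 7.81 and 13.7 FPKM in the FFSS libraries and 1.25, 0.448 and 1.65 FPKM in the P3 libraries. All FFSS libraries lay above all P3 libraries, and all P9 libraries lay below them, though the FFSS libraries differed among themselves more than 3-fold. The log2 fold change of FFSS over P3 was 2.94 ± 0.41 (SE; adjusted p = 0.00270). Cd14, the co-receptor that hands lipopolysaccharide to Tlr4 (chr18:29560365-29562153, minus strand, Rnor_6.0), had 4.62, 4.87 and 4.59 FPKM in the P9 libraries, 39.9, 94.3 and 67.5 FPKM in the FFSS libraries and 8.76, 8.80 and 9.86 FPKM in the P3 libraries. The groups did not overlap, FFSS replicate 1 was the lowest of its group, and the fold change was 2.67 ± 0.26 (SE; adjusted p = 0.000620). Tlr4, the receptor of lipopolysaccharide, had 2.81, 2.43 and 1.26 FPKM in the P9 libraries, 6.49, 9.12 and 7.27 FPKM in the FFSS libraries and 3.44, 2.87 and 3.63 FPKM in the P3 libraries. Each FFSS library was above each P3 library, with a fold change of 0.99 ± 0.21 (SE; adjusted p = 0.0132); the call was lost without P3 replicate 2 (adjusted p = 0.0563). Tlr3, an endosomal receptor of double-stranded RNA, was low in every group, at 0.984, 0.675 and 0.678 FPKM in the P9 libraries, 2.44, 1.52 and 1.51 FPKM in the FFSS libraries and 0.873, 0.746 and 0.682 FPKM in the P3 libraries. Its FFSS libraries lay above the others and its P9 and P3 libraries overlapped. The fold change of Tlr3 in FFSS was 0.66 ± 0.18 (SE; adjusted p = 0.0337), and the call was lost without P9 replicate 2 or 3 or P3 replicate 1, 2 or 3 (adjusted p 0.0513 to 0.104); without FFSS replicate 1, 2 or 3 the gene fell below the filter.

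The receptors of tumour necrosis factor differed in level. Tnfrsf1a, the broadly expressed one, had the highest mean level of the members in each group, at 60.1, 54.6 and 50.8 FPKM in the P9 libraries, 76.4, 108 and 96.1 FPKM in the FFSS libraries and 58.6, 56.0 and 64.8 FPKM in the P3 libraries. FFSS libraries were above P3 libraries in every pair, and P9 and P3 libraries overlapped. Its fold change in FFSS was 0.63 ± 0.14 (SE; adjusted p = 0.0161), and the call was lost without FFSS replicate 3 or P3 replicate 1 or 2 (adjusted p 0.0605 to 0.0661). Tnfrsf1b, the inducible one, had 1.82, 1.07 and 1.54 FPKM in the P9 libraries, 12.5, 3.72 and 5.28 FPKM in the FFSS libraries and 2.40, 2.26 and 2.86 FPKM in the P3 libraries. Here FFSS libraries again lay above P3 libraries, but replicate 1 was far above replicates 2 and 3, and the fold change of 1.08 ± 0.34 (SE; adjusted p = 0.0514) did not pass the test. With FFSS replicate 1 left out the fold change was 0.64 and passed (adjusted p = 0.0316), as it did at 1.40 with FFSS replicate 2 left out (adjusted p = 0.0210).

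Of the adaptors and kinases below the receptors, Myd88, the adaptor of most Toll-like receptors, had 11.5, 9.13 and 9.22 FPKM in the P9 libraries, 12.7, 14.4 and 15.2 FPKM in the FFSS libraries and 9.50, 9.12 and 9.65 FPKM in the P3 libraries. Its FFSS libraries lay above both other groups by a small margin, with a fold change over P3 of 0.53 ± 0.12 (SE; adjusted p = 0.0180). That call was lost without FFSS replicate 3 or P3 replicate 1, 2 or 3 (adjusted p 0.0557 to 0.0700). The Irak kinases, which Myd88 recruits, did not move together. Irak2 had 1.84, 2.05 and 1.64 FPKM in the P9 libraries, 1.98, 4.20 and 3.91 FPKM in the FFSS libraries and 0.943, 0.665 and 1.15 FPKM in the P3 libraries; FFSS replicate 1 lay within the P9 range, while both groups lay above P3. Its fold change in FFSS over P3 was 1.15 ± 0.23 (SE; adjusted p = 0.00987). Irak3, a member of the family known as a brake on Toll-like receptor signalling, had 7.62, 6.11 and 5.85 FPKM in the P9 libraries, 30.2, 7.83 and 15.99 FPKM in the FFSS libraries and 9.26, 7.75 and 10.2 FPKM in the P3 libraries. FFSS and P3 libraries overlapped through FFSS replicate 2, and the fold change of 0.74 ± 0.38 (SE; adjusted p = 0.184) did not pass; without FFSS replicate 2 it was 1.20 (adjusted p = 0.0178). Irak4, the kinase that starts the cascade, had 5.52, 5.75 and 4.54 FPKM in the P9 libraries, 4.17, 3.61 and 2.70 FPKM in the FFSS libraries and 3.73, 4.59 and 4.003 FPKM in the P3 libraries, with FFSS and P3 overlapping (-0.20 ± 0.16 (SE; adjusted p = 0.410)). Irak1, their common partner, averaged 34.6 ± 3.88 FPKM in P9, 37.3 ± 1.01 FPKM in FFSS and 31.5 ± 2.70 FPKM in P3 libraries (SD, n = 3 each) and was not called in any comparison.

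The Traf proteins and the ubiquitin ligases Birc2 and Birc3 link the receptors to the kinases. Traf3, which together with Traf2 and the Birc proteins keeps the kinase Map3k14 low, had 9.43, 7.97 and 9.24 FPKM in the P9 libraries, 11.2, 13.9 and 13.8 FPKM in the FFSS libraries and 8.13, 9.97 and 7.5 FPKM in the P3 libraries. FFSS libraries lay above P3 libraries, and the fold change was 0.55 ± 0.14 (SE; adjusted p = 0.0254), a call lost without FFSS replicate 2 or 3 or P3 replicate 1 or 3 (adjusted p 0.0649 to 0.0968). Traf6, the ligase downstream of the Irak kinases, had 4.25, 3.20 and 3.09 FPKM in the P9 libraries, 4.57, 5.68 and 5.196 FPKM in the FFSS libraries and 3.84, 3.94 and 4.53 FPKM in the P3 libraries, and its FFSS difference of 0.27 ± 0.15 (SE; adjusted p = 0.214) did not pass although no FFSS library fell among the P3 libraries. Traf1 averaged 0.954 ± 0.115 FPKM in P9, 1.64 ± 0.8503 FPKM in FFSS and 1.17 ± 0.360 FPKM in P3 libraries, and its groups overlapped. Traf2 averaged 8.82 ± 1.24 FPKM in P9, 10.48 ± 1.25 FPKM in FFSS and 11.8 ± 0.0296 FPKM in P3 libraries, the last with a spread far smaller than the others (SD, n = 3 each), and was not called. Birc3 had 1.39, 0.696 and 1.26 FPKM in the P9 libraries, 4.79, 12.4 and 9.52 FPKM in the FFSS libraries and 1.69, 1.31 and 1.80 FPKM in the P3 libraries. Its FFSS libraries lay clear of the others, with replicate 1 lowest, and its fold change was 1.85 ± 0.29 (SE; adjusted p = 0.00440). Birc2, the neighbouring paralog of Birc3 on chromosome 8, had 6.47, 6.57 and 6.41 FPKM in the P9 libraries, 7.95, 16.1 and 11.8 FPKM in the FFSS libraries and 6.75, 7.13 and 6.87 FPKM in the P3 libraries. FFSS libraries of Birc2 lay above P3 libraries, replicate 1 only just, and the fold change of 0.66 ± 0.20 (SE; adjusted p = 0.0490) was at the edge of the call, which was lost without any single library other than FFSS replicate 1 (adjusted p 0.0631 to 0.135).

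Of the remaining kinases, Map3k8, which is bound by the Nfkb1 precursor and activates the ERK branch, had 0.203, 0.204 and 0.321 FPKM in the P9 libraries, 5.07, 3.40 and 3.33 FPKM in the FFSS libraries and 0.481, 0.627 and 0.961 FPKM in the P3 libraries. The groups were separate, and its fold change in FFSS over P3 was 1.54 ± 0.19 (SE; adjusted p = 0.00175); without FFSS replicate 1, 2 or 3 it fell below the filter and was not tested. Ripk2, the kinase of the NOD receptors, had 3.85, 4.52 and 5.28 FPKM in the P9 libraries, 6.46, 34.0 and 22.4 FPKM in the FFSS libraries and 5.03, 6.56 and 4.02 FPKM in the P3 libraries. FFSS replicate 1 lay within the P3 range and FFSS replicates 2 and 3 far above it. The fold change of Ripk2 was 1.58 ± 0.48 (SE; adjusted p = 0.0447), and the call was lost without any single library other than FFSS replicate 1 (adjusted p 0.0605 to 0.139). Map3k14, the kinase of the non-canonical branch, averaged 3.89 ± 0.395 FPKM in P9, 5.58 ± 1.88 FPKM in FFSS and 3.27 ± 0.515 FPKM in P3 libraries (SD, n = 3 each) and was not called in FFSS (0.59 ± 0.22 (SE; adjusted p = 0.0901)), but was called higher without FFSS replicate 1 (0.85, adjusted p = 0.00253).

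Of the IkB kinases, the canonical pair was not called. Ikbkb, the catalytic kinase of the canonical branch, averaged 11.5 ± 2.03 FPKM in P9, 14.3 ± 2.65 FPKM in FFSS and 10.54 ± 0.141 FPKM in P3 libraries (SD, n = 3 each), with a fold change in FFSS of 0.39 ± 0.16 (SE; adjusted p = 0.119). Without FFSS replicate 1 it was 0.54 and was called (adjusted p = 0.0157). Chuk, the partner kinase that also serves the non-canonical branch, averaged 9.28 ± 1.36 FPKM in P9, 8.01 ± 1.23 FPKM in FFSS and 7.36 ± 0.790 FPKM in P3 libraries, and FFSS and P3 overlapped. Ikbke, a related inducible kinase that also acts on interferon regulatory factors, had 4.67, 4.34 and 6.20 FPKM in the P9 libraries, 12.1, 5.67 and 7.57 FPKM in the FFSS libraries and 3.72, 2.96 and 3.73 FPKM in the P3 libraries. All P9 and all FFSS libraries lay above all P3 libraries, and the fold change of FFSS over P3 was 1.03 ± 0.24 (SE; adjusted p = 0.0182), a call lost without FFSS replicate 3 or P3 replicate 1 or 2 (adjusted p 0.0508 to 0.0696).

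Genes for all 5 NF-kB subunits were called higher in FFSS than in P3 libraries. Rela, the main activating subunit, had 28.3, 28.5 and 27.7 FPKM in the P9 libraries, 38.2, 41.0 and 42.4 FPKM in the FFSS libraries and 30.6, 29.6 and 29.5 FPKM in the P3 libraries. The rise was small but the libraries of each group lay close together, and the fold change was 0.42 ± 0.09 (SE; adjusted p = 0.0123); the call was lost without FFSS replicate 3 or P3 replicate 1, 2 or 3 (adjusted p 0.0515 to 0.0542). Nfkb1, which encodes the usual partner of Rela, had 21.4, 16.4 and 15.0 FPKM in the P9 libraries, 43.3, 39.9 and 39.8 FPKM in the FFSS libraries and 23.7, 21.6 and 24.6 FPKM in the P3 libraries. FFSS libraries lay well above P3 libraries and P9 libraries below them, and the fold change of FFSS over P3 was 0.79 ± 0.14 (SE; adjusted p = 0.00607). Nfkb2, the precursor of the non-canonical subunit, had 16.9, 18.2 and 18.04 FPKM in the P9 libraries, 39.0, 20.4 and 30.4 FPKM in the FFSS libraries and 18.1, 19.2 and 16.3 FPKM in the P3 libraries. FFSS replicate 2 was only just above the P3 libraries, and the fold change of 0.67 ± 0.20 (SE; adjusted p = 0.0437) was called, but not without any single library other than FFSS replicate 2 (adjusted p 0.0513 to 0.132). Rel, a subunit best known from lymphocytes, had 2.40, 1.85 and 1.503 FPKM in the P9 libraries, 4.72, 8.14 and 6.73 FPKM in the FFSS libraries and 2.20, 1.88 and 1.88 FPKM in the P3 libraries. P9 and P3 libraries of Rel overlapped, all FFSS libraries lay above them, and the fold change was 1.31 ± 0.20 (SE; adjusted p = 0.00366). Relb, the transactivating partner in the non-canonical branch (chr1:80517411-80544825, minus strand, Rnor_6.0), had 4.14, 4.47 and 3.90 FPKM in the P9 libraries, 27.2, 19.4 and 19.0 FPKM in the FFSS libraries and 8.68, 9.22 and 7.75 FPKM in the P3 libraries. The groups of Relb did not overlap in any pair, with P9 lowest and FFSS highest, and the fold change of FFSS over P3 was 1.24 ± 0.15 (SE; adjusted p = 0.00158).

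Among the inhibitors and feedback regulators, Nfkbiz, Nfkbia and Tnfaip3 rose most. The receptor genes Tlr2 and Cd14 rose on a like scale, 15.2-fold and 7.35-fold in mean FPKM. Nfkbia, the IkB that is degraded and remade in each cycle of activation (chr6:76267228-76270457, minus strand, Rnor_6.0), had 7.87, 7.96 and 9.53 FPKM in the P9 libraries, 72.9, 81.9 and 81.7 FPKM in the FFSS libraries and 9.47, 7.65 and 9.00 FPKM in the P3 libraries. Its FFSS libraries agreed closely and lay 9.06-fold above P3 in mean FPKM, and its P9 and P3 libraries overlapped. The log2 fold change of Nfkbia in FFSS was 3.04 ± 0.12 (SE; adjusted p = 4.57e-06). Nfkbiz, a nuclear IkB relative that acts as a co-activator of a subset of target genes (chr11:47243342-47271487, plus strand, Rnor_6.0), had 1.502, 1.38 and 1.59 FPKM in the P9 libraries, 44.2, 55.0 and 50.8 FPKM in the FFSS libraries and 2.56, 1.88 and 3.06 FPKM in the P3 libraries. It showed the largest rise of the tested members, 19.99-fold in mean FPKM, and every FFSS library lay above every P3 library. Its log2 fold change was 3.87 ± 0.15 (SE; adjusted p = 4.57e-06). Tnfaip3, a ubiquitin-editing enzyme that shuts off signalling to the IkB kinases (chr1:14402913-14412807, minus strand, Rnor_6.0), had 1.38, 1.15 and 1.27 FPKM in the P9 libraries, 15.2, 14.2 and 16.5 FPKM in the FFSS libraries and 1.84, 1.78 and 1.86 FPKM in the P3 libraries. The FFSS libraries lay 8.37-fold above P3 in mean FPKM with little spread, and the log2 fold change was 2.52 ± 0.12 (SE; adjusted p = 9.57e-06). These 3 genes kept their calls in FFSS under every setting tried, also without FFSS replicate 1.

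Nfkbib and Nfkbie, the other classical IkB genes of the list, changed by less. Nfkbib had 7.45, 10.4 and 9.91 FPKM in the P9 libraries, 20, 20.4 and 18.7 FPKM in the FFSS libraries and 10.6, 11.3 and 9.30 FPKM in the P3 libraries, with FFSS clear of both other groups and a fold change over P3 of 0.86 ± 0.14 (SE; adjusted p = 0.00490). Nfkbie had 7.002, 8.15 and 8.85 FPKM in the P9 libraries, 19.4, 17.4 and 17.9 FPKM in the FFSS libraries and 10.53, 9.46 and 11.4 FPKM in the P3 libraries. In Nfkbie the P9 libraries lay below the P3 libraries and the FFSS libraries above them, with a fold change in FFSS of 0.75 ± 0.12 (SE; adjusted p = 0.00503). Bcl3, a nuclear IkB relative that can activate as well as repress, had 0, 0 and 0.0657 FPKM in the P9 libraries, 4.65, 3.02 and 2.89 FPKM in the FFSS libraries and 0.982, 0.462 and 1.26 FPKM in the P3 libraries. These rest on few fragments: 0, 0 and 2 in P9, 131, 83 and 81 in FFSS and 28, 12 and 35 in P3 libraries, where a count of 0 still allows 3. The groups of Bcl3 did not overlap, and the fold change of FFSS over P3 was 1.25 ± 0.22 (SE; adjusted p = 0.00659). Tnip1, an adaptor that works with Tnfaip3, averaged 25.5 ± 1.55 FPKM in P9, 52.8 ± 43.2 FPKM in FFSS and 23.7 ± 0.912 FPKM in P3 libraries (SD, n = 3 each). FFSS replicate 1 stood at 99.5 FPKM and FFSS replicate 2 at 14.2 FPKM, on either side of the P3 libraries, and Tnip1 was not called (0.74 ± 0.54 (SE; adjusted p = 0.349)); without FFSS replicate 2 it was (1.45, adjusted p = 0.0132).

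Of the targets, Icam1, an adhesion molecule for leukocytes that stromal cells display on activation, had 39.1, 37.8 and 30.9 FPKM in the P9 libraries, 59.7, 70.6 and 66.5 FPKM in the FFSS libraries and 35.1, 34.0 and 35.5 FPKM in the P3 libraries. FFSS libraries lay above all others and P9 and P3 overlapped, with a fold change in FFSS of 0.89 ± 0.12 (SE; adjusted p = 0.00217). Tnfaip2, a gene induced by tumour necrosis factor, had 6.68, 7.48 and 6.60 FPKM in the P9 libraries, 17.2, 21.6 and 20.5 FPKM in the FFSS libraries and 13.4, 11.5 and 13.9 FPKM in the P3 libraries. Its groups did not overlap in any pair, and its fold change in FFSS was 0.57 ± 0.13 (SE; adjusted p = 0.0151); the call was lost without FFSS replicate 3 or P3 replicate 1 or 2 (adjusted p 0.0533 to 0.0662). Vcam1, another adhesion molecule, lay below the filter in every library, at 0.0549, 0.0655 and 0.0463 FPKM in the P9 libraries, 0.234, 0.874 and 0.672 FPKM in the FFSS libraries and 0.0330, 0.0181 and 0.0338 FPKM in the P3 libraries. In fragments it had 3, 4 and 3 in P9, 14, 51 and 40 in FFSS and 2, 1 and 2 in P3 libraries, so all FFSS libraries lay above the rest. With no filter its fold change in FFSS over P3 was 0.61 (adjusted p = 0.0282). Tnf, the cytokine that both activates the pathway and is made by it, was at 0 in 8 libraries and had 1 fragment in FFSS replicate 2. Nos2, inducible nitric oxide synthase, was not analysed here.

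**Figure D3:**
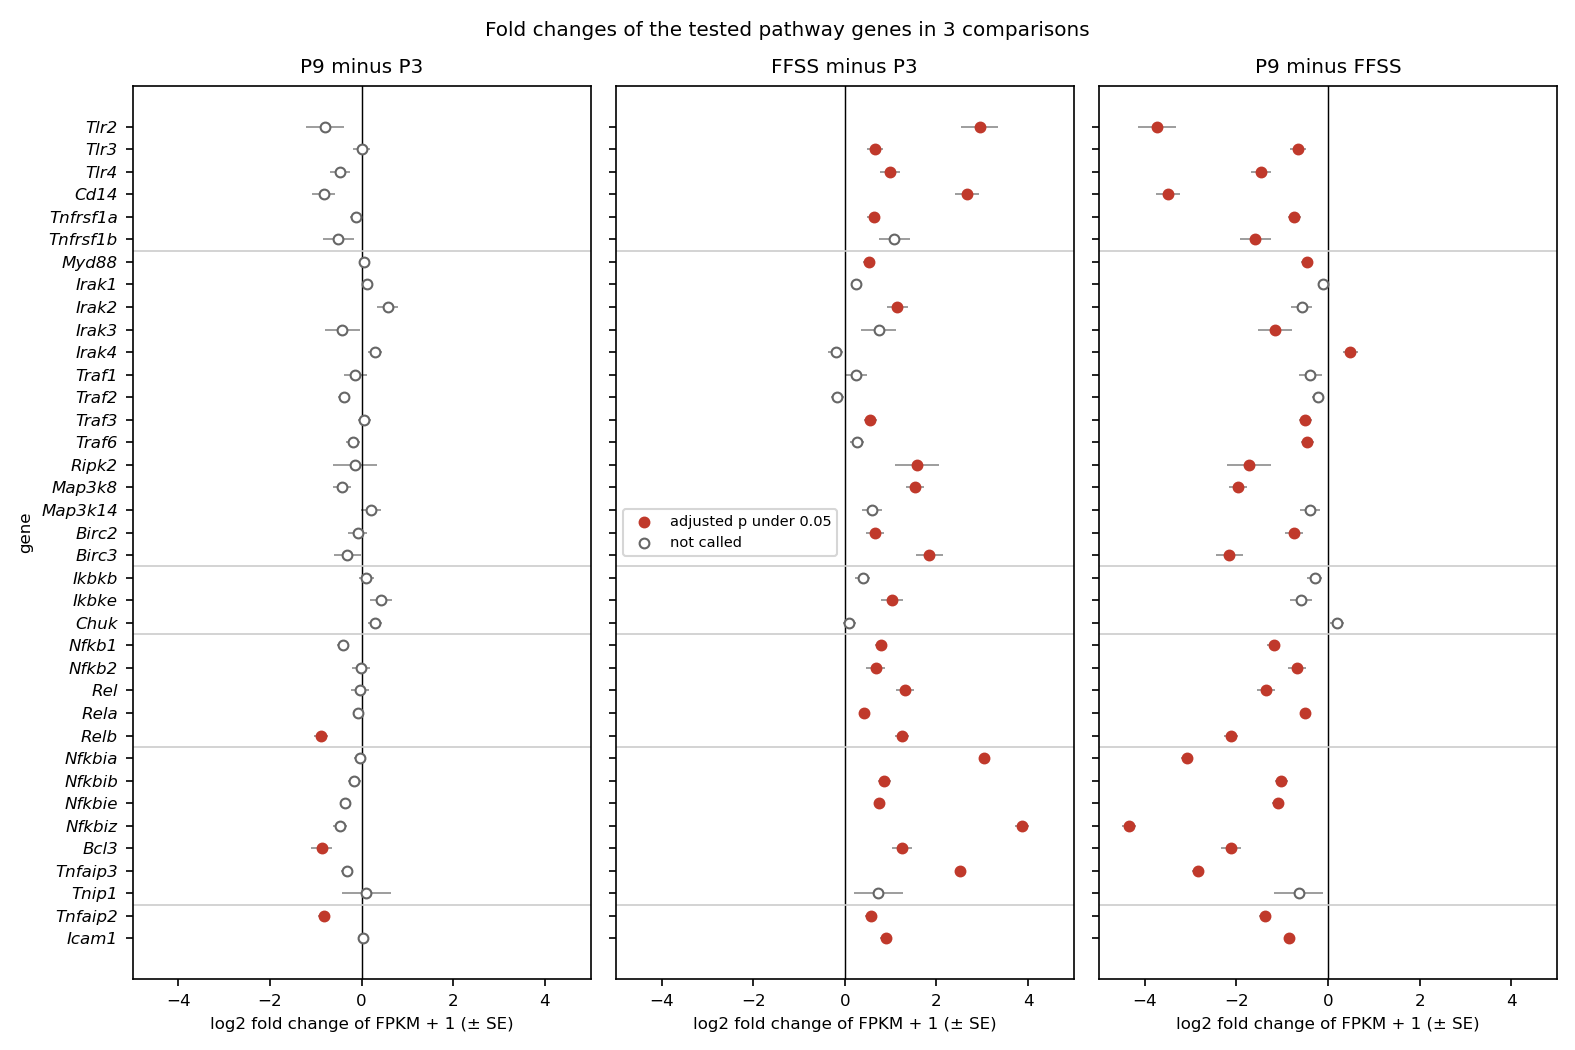
Log2 fold change of FPKM + 1 (x axis, ± SE) of the 37 tested members, by gene and in order of role, for P9 against P3 (left), FFSS against P3 (middle) and P9 against FFSS (right). Filled points passed an adjusted p under 0.05: 3 of them in the left panel, 26 in the middle and 28 in the right.

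The comparison of P9 with P3 libraries asks what repeated passage did to the pathway. At passage 9, 34 of the 37 tested members were not called in either direction, and Relb, Tnfaip2 and Bcl3 fell. These 3 of 37 (8.11%) were called lower, where 4.44% of all tested genes were lower, and limma called 0 higher, where 5.39% of all tested genes were higher; 9.83% were called in either direction. For the higher direction, 1 member (Irak2) had an unadjusted p under 0.05 and voom called 0. The median log2 fold change of the members was -0.14, with a range of -0.88 to 0.57, against 0.00 over all tested genes. In 16 members all P9 libraries lay below all P3 libraries (19.1% of all tested genes), and in 3, Chuk, Ikbke and Irak2, all lay above (20.9%). Relb changed by -0.88 ± 0.15 (SE; adjusted p = 0.00704) and Tnfaip2 by -0.81 ± 0.13 (SE; adjusted p = 0.00434), both with groups that did not overlap. Bcl3, with 2 fragments in the P9 libraries together, changed by -0.87 ± 0.22 (SE; adjusted p = 0.0390) on the scale of log2(FPKM + 1), which is no bound on its true ratio. Its call was lost without P9 replicate 1, 2 or 3, FFSS replicate 3 or P3 replicate 1 or 3 (adjusted p 0.0557 to 0.154) and with no filter (adjusted p = 0.0555).

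The other members were not called at passage 9 with all libraries. Nfkbia changed by -0.04 ± 0.12 (SE; adjusted p = 0.894) and Rel by -0.04 ± 0.20 (SE; adjusted p = 0.929), with overlapping groups. Cd14 lay below P3 in every P9 library, with a fold change of -0.83 ± 0.26 (SE; adjusted p = 0.0811). It was called lower without FFSS replicate 1 (adjusted p = 0.00364) or FFSS replicate 2 (adjusted p = 0.0201), which enter only through the filter and the shared estimate of spread, and with only the P9 and P3 libraries fitted (adjusted p = 0.00148). Nfkbiz, with -0.48 (adjusted p = 0.0899), Tlr2, with -0.80 (adjusted p = 0.295), and Map3k8, with -0.43 (adjusted p = 0.220), also lay below P3 in all P9 libraries and did not pass the test. Nfkb1 changed by -0.40 ± 0.14 (SE; adjusted p = 0.110) and was called lower without P9 replicate 1 (-0.54, adjusted p = 0.0261). Irak2 stood at 0.57 ± 0.23 (SE; adjusted p = 0.168) and was called higher without FFSS replicate 1 (adjusted p = 0.0322) and with only the P9 and P3 libraries fitted (adjusted p = 0.0399). Ikbke, at 0.43 ± 0.24 (SE; adjusted p = 0.329), and Chuk, at 0.29 ± 0.15 (SE; adjusted p = 0.298), were not called.

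The difference between both models was tested directly as P9 minus FFSS. Most members stood lower in P9 than in FFSS libraries, by most for Nfkbiz, Tlr2, Cd14, Nfkbia and Tnfaip3, and Irak4 stood higher. Of the 37 tested, 27 (73.0%) were called lower, where 15.3% of all tested genes were lower, and 1 was called higher, where 16.1% of all tested genes were higher; 31.4% were called in either direction. Without the 4 members that passed the filter only through FFSS, Tlr2 among them, 23 of 33 were called lower. The median log2 fold change of the 37 was -0.85, with a range of -4.35 to 0.49, against 0.00 over all tested genes. In 27 members all P9 libraries lay below all FFSS libraries (20% of all tested genes), and in Irak4 all lay above (22.2%). The comparisons share libraries, so these counts do not add independent evidence to those of FFSS against P3. Leaving out FFSS replicate 1 gave 27 members called lower, where 21.96% of all genes then tested were lower. Leaving out FFSS replicate 3 gave 18, where 9.25% were.

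The fold change of P9 over FFSS was -4.35 ± 0.15 (SE; adjusted p = 1.30e-06) for Nfkbiz. For Tlr2 it was -3.74 ± 0.41 (SE; adjusted p = 0.000335), for Cd14 -3.50 ± 0.26 (SE; adjusted p = 3.97e-05), for Nfkbia -3.08 ± 0.12 (SE; adjusted p = 2.04e-06) and for Tnfaip3 -2.84 ± 0.12 (SE; adjusted p = 2.43e-06). Among the subunits, it ran from -2.13 for Relb (adjusted p = 3.53e-05) to -0.51 for Rela (adjusted p = 0.00338), and all 5 were called lower. Called between the models but not between FFSS and P3 were Tnfrsf1b (-1.59 ± 0.34 (SE; adjusted p = 0.00828)), Irak3 (-1.16 ± 0.38 (SE; adjusted p = 0.0445)), Traf6 (-0.45 ± 0.15 (SE; adjusted p = 0.0440)) and Irak4 (0.49 ± 0.16 (SE; adjusted p = 0.0466)). The call of Irak3 was lost without any single library other than FFSS replicate 2 (adjusted p 0.0531 to 0.110), that of Traf6 without P9 replicate 2 or 3, FFSS replicate 2 or 3 or P3 replicate 1, 2 or 3 (adjusted p 0.0644 to 0.130), and that of Irak4 without any single library other than FFSS replicate 1 (adjusted p 0.0527 to 0.150). Irak2 (-0.58 ± 0.23 (SE; adjusted p = 0.0834)) and Ikbke (-0.59 ± 0.24 (SE; adjusted p = 0.0893)), higher in FFSS than in P3 libraries, were not called between P9 and FFSS.

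Calls of lower level in P9 than in FFSS that hung on single libraries were further those of Tlr3, lost without P9 replicate 2 or 3 (adjusted p 0.0759 to 0.0873), Myd88, lost without P9 replicate 2 or 3 or FFSS replicate 3 (adjusted p 0.0653 to 0.0771), and Traf3, lost without P9 replicate 2 or 3, FFSS replicate 2 or 3 or P3 replicate 1 (adjusted p 0.0506 to 0.0976). The calls of Ripk2 (without P9 replicate 1, 2 or 3 or FFSS replicate 2 or 3 (adjusted p 0.0509 to 0.0844)), Birc2 (without P9 replicate 1, 2 or 3 or FFSS replicate 3 (adjusted p 0.0625 to 0.0725)) and Nfkb2 (without P9 replicate 1, 2 or 3, FFSS replicate 3 or P3 replicate 1 (adjusted p 0.0533 to 0.0956)) were likewise lost. With only the P9 and FFSS libraries fitted, the calls of Tlr3, Myd88, Irak3, Irak4, Traf3, Traf6, Ripk2, Birc2 and Nfkb2 were lost (adjusted p of 0.0584 to 0.112), with no filter those of Irak3, Irak4, Traf6 and Nfkb2 (adjusted p of 0.0534 to 0.0836), and with libraries rescaled those of Myd88, Irak3, Traf3, Traf6 and Nfkb2 (adjusted p of 0.0664 to 0.114). Across the 3 comparisons, 21 members were higher in FFSS than in P3 and lower in P9 than in FFSS, with no call between P9 and P3. Relb, Tnfaip2 and Bcl3 were called in all 3 comparisons, lowest in P9 and highest in FFSS. Chuk, Ikbkb, Irak1, Map3k14, Tnip1, Traf1 and Traf2 were called in none.

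The FFSS libraries differed among themselves in which members were high. FFSS replicate 1 was the lowest of its group in 20 of the 37 tested members (54.1%), the highest in 15 (40.5%) and in the middle in 2 (5.41%). Over all tested genes, FFSS replicate 1 was the lowest in 39.6%, the highest in 42.5% and in the middle in 17.8%. On the log2 scale FFSS replicate 1 stood below the mean of FFSS replicates 2 and 3 by 1.94 for Ripk2, by 1.04 for Birc3 and by 0.98 for Cd14. It stood above that mean by 1.93 for Tnip1, by 1.42 for Tlr2, by 1.35 for Irak3 and by 1.31 for Tnfrsf1b. Nfkbia, Nfkbib, Nfkbie, Nfkb1 and Tnfaip3 differed from that mean by at most 0.16 in either direction. Counted by library, 32 of 37 members in FFSS replicate 1, 32 in FFSS replicate 2 and 34 in FFSS replicate 3 lay above all P3 libraries. The share of all tested genes was not counted for single libraries, so these counts have no background beside them. The median SD of a member on the log2 scale was 0.15 in P9, 0.26 in FFSS and 0.12 in P3 libraries. Over all tested genes it was 0.17, 0.27 and 0.11 in the same order, so the wider spread in FFSS was not particular to the members.

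**Figure D4:**
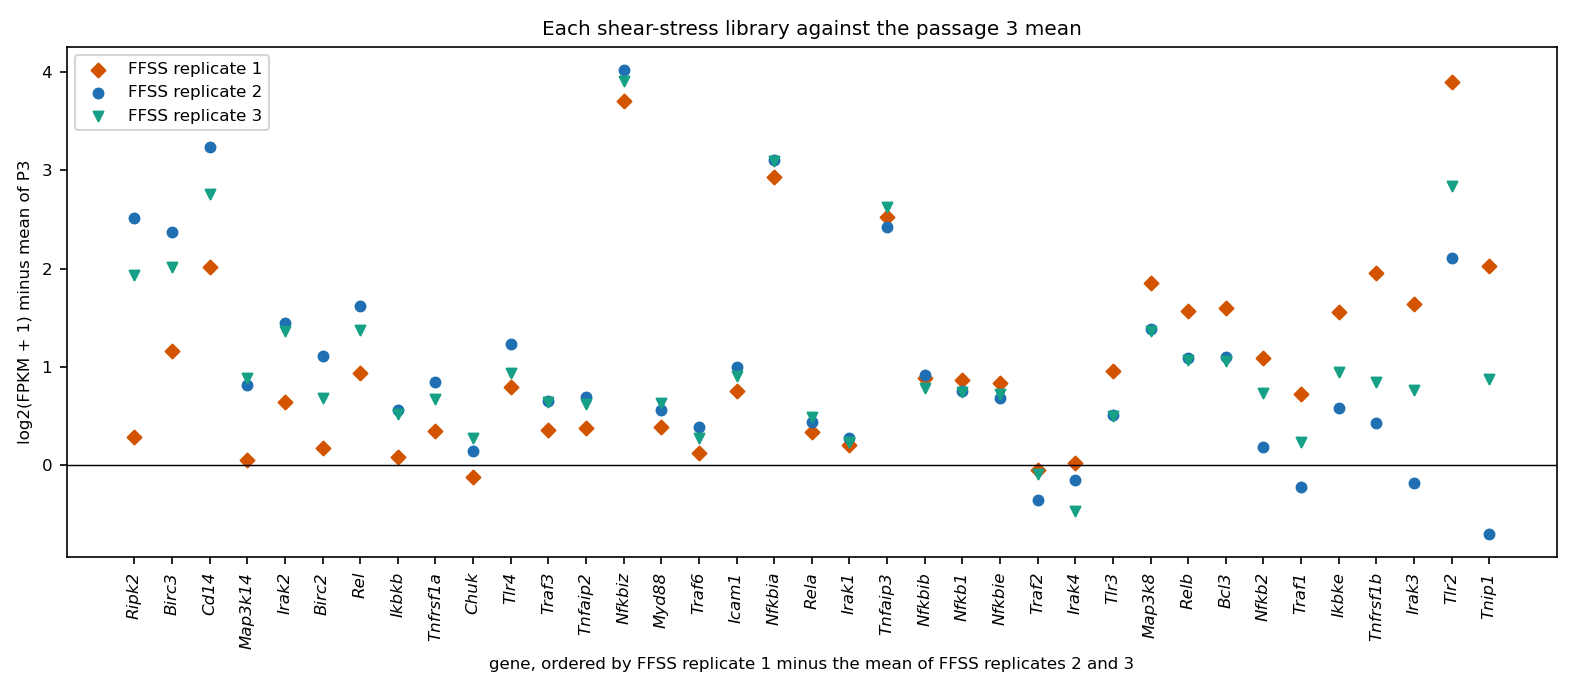
Log2(FPKM + 1) of each FFSS library minus the mean of the P3 libraries (y axis) for the 37 tested members, ordered by how far FFSS replicate 1 lies below or above the mean of FFSS replicates 2 and 3. Replicate 1 (diamonds) runs below the others at the left and above them at the right. Its difference from the mean of FFSS replicates 2 and 3, which is not the y value, runs from -1.94 for Ripk2 to 1.93 for Tnip1. Nfkbia, Tnfaip3 and Nfkbiz are high in all 3 libraries.

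Several members, Cd14, Tlr2 and Tlr4 among them, are also abundant in macrophages, so markers of leukocytes were read beside them. Of 12 listed markers 11 had a row. Their summed level was 2.36, 2.15 and 1.60 FPKM in the P9 libraries, 2.37, 12.4 and 7.37 FPKM in the FFSS libraries and 0.933, 1.09 and 1.40 FPKM in the P3 libraries. The sums were thus highest in FFSS replicates 2 and 3, and FFSS replicate 1 was at the level of P9 replicate 1. Ptprc, the marker shared by leukocytes, did not exceed 0.0224 FPKM as a group mean and Cd163 and Cd3e were at 0 in every library. Cd68 had 0.414, 0.423 and 0.848 FPKM in the P9 libraries, 2.16, 2.60 and 2.11 FPKM in the FFSS libraries and 0.533, 0.643 and 0.873 FPKM in the P3 libraries. Csf1r had 0.0921, 0.0329 and 0.218 FPKM in the P9 libraries, 0.0840, 3.17 and 2.08 FPKM in the FFSS libraries and 0.0830, 0.0182 and 0.187 FPKM in the P3 libraries, and Lyz2 0, 0 and 0 FPKM in the P9 libraries, 0.0562, 5.36 and 2.94 FPKM in the FFSS libraries and 0.222, 0.305 and 0.171 FPKM in the P3 libraries. Cd74 was instead highest in P9, with 1.84, 1.70 and 0.534 FPKM in the P9 libraries, 0, 0.0987 and 0.194 FPKM in the FFSS libraries and 0.0951, 0.104 and 0.146 FPKM in the P3 libraries, and made up most of the sum in P9 replicates 1 and 2. Of the 11 markers, 7 were at 0 in all P9 libraries, 3 in all FFSS libraries and 5 in all P3 libraries. FFSS replicate 1 had the lowest marker sum of its group. In that library Nfkbia, Nfkbiz and Tnfaip3 stood at 72.9, 44.2 and 15.2 FPKM, and Tlr2 was at its highest, 29.4 FPKM. Cd14, at 39.9, 94.3 and 67.5 FPKM in FFSS replicates 1, 2 and 3, ranked across them as the marker sum did. So did Tlr4, at 6.49, 9.12 and 7.27 FPKM, and also Nfkbia and Nfkbiz, while Tlr2 and Tnfaip3 did not. The part of the leukocyte marker transcripts in the rises of Cd14, Tlr2 and Tlr4, and that of the higher mitochondrial share in FFSS libraries, was not tested. In bulk RNA a change in the share of cells of a type and a change in RNA per cell cannot be told apart.

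**Figure D5:**
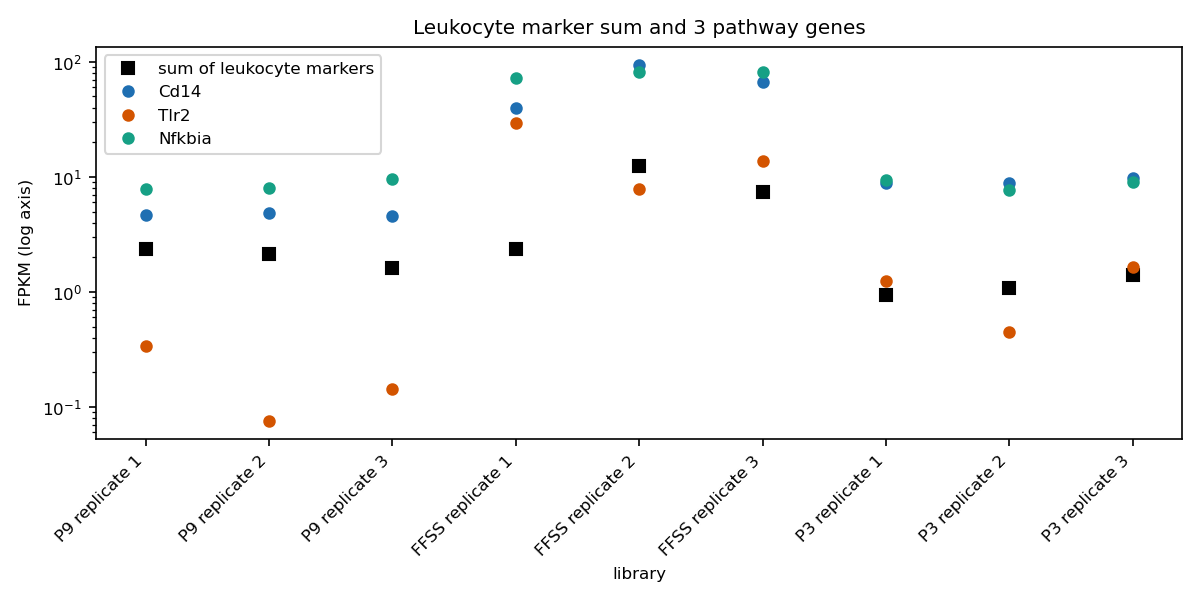
FPKM on a log axis of the summed leukocyte markers (black squares) and of Cd14, Tlr2 and Nfkbia in each library. The marker sum differs more than 5-fold among the FFSS libraries, while Nfkbia stays between 72.9 and 81.9 FPKM in them.

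The order of levels within the list, which FPKM allow since they are scaled by gene length, was led by the mean of Tnfrsf1a in every group, and in P9 and P3 its libraries did not overlap those of any other member. In P9 libraries Icam1 (35.9 FPKM), Irak1 (34.6 FPKM) and Rela (28.2 FPKM) followed, where Icam1 and Irak1 overlapped and Rela lay below both. In FFSS libraries Nfkbia was next, with a mean of 78.8 FPKM, then Cd14 with 67.2 FPKM, and the libraries of the 3 genes overlapped. Tnip1, at 99.5 FPKM, was above Tnfrsf1a in FFSS replicate 1, and the mean of Nfkbiz, 50 FPKM, was at rank 6. In P3 libraries Icam1 (34.9 FPKM), Irak1 (31.5 FPKM) and Rela (29.9 FPKM) followed Tnfrsf1a, where the libraries of Irak1 overlapped those of Icam1 and of Rela, which did not overlap each other. Nfkbia was at rank 14 in P9 and 16 in P3 libraries, and Nfkbiz at rank 29 in P9 and 28 in P3 libraries.

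Of 81 further genes of the pathway, 75 had a row and 61 were tested. In FFSS over P3, 11 (18.03%) were called higher and 2 (3.28%) lower, where 11.4% and 10.4% of all tested genes were, with a median log2 fold change of 0.14. Without Tnip3, which passed the filter only through its FFSS libraries, 10 of 60 were called higher. Zc3h12a, an RNase that degrades inflammatory transcripts, rose most clearly, with 59.2 ± 2.95 FPKM in FFSS and 5.59 ± 0.329 FPKM in P3 libraries (SD, n = 3 each), a log2 fold change of 3.19 (adjusted p = 3.04e-06). Irf1, an interferon regulatory factor, had 15.8 ± 6.49 FPKM in FFSS and 3.25 ± 0.324 FPKM in P3 libraries (log2 fold change 1.91, adjusted p = 0.00216). Nkiras1, an IkB-binding Ras-like protein (0.82, adjusted p = 0.00376), Sqstm1, an autophagy adaptor (0.53, adjusted p = 0.00675), and the ubiquitin ligase Peli1 (0.81, adjusted p = 0.00834) rose by less. Tnip3, a relative of Tnip1 whose difference follows in part from the filter, stood at 6.59 ± 4.48 FPKM in FFSS and 0.119 ± 0.103 FPKM in P3 libraries (2.50, adjusted p = 0.00873). The counts were 7 higher and 0 lower without FFSS replicate 3, where 5.55% and 5.38% of all genes then tested were. They were 17 higher and 9 lower without FFSS replicate 1, where 19.3% of all genes then tested were higher and 19.7% lower. Leaving out P3 replicate 1 or 2 also gave 0 lower (4.03% and 4.44% of all genes then tested). Leaving out P3 replicate 3 or P9 replicate 2 gave 1 (5.26% and 8.38%).

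In P9 over P3, 4 of these 61 genes (6.56%) were called higher and 3 (4.92%) lower, shares close to the 5.39% and 4.44% of all tested genes. Il1rl1, a receptor of interleukin 33, had 448 ± 109 FPKM in P9 and 35.2 ± 7.74 FPKM in P3 libraries (log2 fold change 3.62, adjusted p = 0.00119). Traf5 (0.84, adjusted p = 0.00348), the death receptor Fas (1.06, adjusted p = 0.00623) and the ligase adaptor Spop (0.54, adjusted p = 0.00887) rose as well, Spop not without P3 replicate 3 (adjusted p = 0.0544). Lbp, which carries lipopolysaccharide to Cd14, had 0.211 ± 0.0428 FPKM in P9 and 7.13 ± 3.16 FPKM in P3 libraries (-2.66, adjusted p = 0.0141), a call lost without P9 replicate 1 or 2 or P3 replicate 1 or 3 (adjusted p 0.0550 to 0.0653) and with voom (adjusted p = 0.101). Ngfr, a neurotrophin receptor (-1.36, adjusted p = 0.0143), lost its call without P9 replicate 1 or 2 or P3 replicate 1, 2 or 3 (adjusted p 0.0535 to 0.0678). Leaving out P9 replicate 1 or 2 or P3 replicate 1 or 3 gave 0 lower (1.99 to 2.77% of all genes then tested). Leaving out P3 replicate 2 gave 1 (2.68%), and leaving out FFSS replicate 1 or 2 gave 5 (7.78% and 5.86%).

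In P9 over FFSS, 7 of the 61 (11.5%) were called higher and 13 (21.3%) lower, where 16.1% and 15.3% of all tested genes were. The log2 fold change was -3.65 for Zc3h12a (adjusted p = 5.52e-07), -4.54 for Lbp (adjusted p = 0.000463) and -1.94 for Irf1 (adjusted p = 0.000789). It was 5.48 for Il1rl1 (adjusted p = 5.56e-05), 0.72 for Spop (adjusted p = 0.000959) and 0.67 for Traf5 (adjusted p = 0.00430). The counts were 13 higher and 20 lower without FFSS replicate 1 (23.7% and 21.96% of all genes then tested). They were 4 higher without P9 replicate 2 (10.04%) and 7 lower without FFSS replicate 3 (9.25%).

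Of 54 further genes known as NF-kB targets, 40 were tested, and 30 were called higher and 1 lower in FFSS than in P3 libraries, with a median log2 fold change of 1.38. These are 75% and 2.5% of the 40, where 11.4% and 10.4% of all tested genes were called higher and lower. This list, like that of the further pathway genes, was chosen with earlier results of these data known. Its shares are therefore not independent of the data. Cxcl10, Csf2, Mmp13, Lcn2 and Psmb9 passed the filter only through their FFSS libraries, and without these 5 genes 26 of 35 were called higher. Leaving out FFSS replicate 1 gave 27 higher and 2 lower, where 19.3% and 19.7% of all genes then tested were. Leaving out FFSS replicate 3 gave 19 higher, where 5.55% were. Ccl2, a chemokine that attracts monocytes, had 1029 ± 193 FPKM in FFSS and 28.4 ± 6.86 FPKM in P3 libraries (log2 fold change 5.14, adjusted p = 8.80e-06). Cxcl1, a chemokine that attracts neutrophils, had 457 ± 97.8 FPKM in FFSS and 28.6 ± 3.56 FPKM in P3 libraries (3.94, adjusted p = 0.000139). The prostaglandin synthase Ptges (3.66, adjusted p = 0.000373), the cytokine Il6 (2.71, adjusted p = 0.000549) and the stress gene Gadd45a (1.82, adjusted p = 0.00105) rose. Ccnd1, cyclin D1 and a driver of the cell cycle, was the target called lower, with 52.1 ± 3.45 FPKM in FFSS and 134 ± 6.59 FPKM in P3 libraries (-1.35, adjusted p = 0.000361).

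In P9 over P3, 3 of the 40 tested targets (7.5%) were called higher and 4 (10%) lower, where 5.39% and 4.44% of all tested genes were. Without FFSS replicate 1 these were 6 and 10, and the shares of all genes then tested were 9.53% higher and 7.78% lower. The bradykinin receptor Bdkrb1 (-1.50, adjusted p = 0.000510), Cxcl1 (-2.31, adjusted p = 0.00176) and the matrix protease Mmp3 (-2.61, adjusted p = 0.00326) fell. The crosslinking enzyme Tgm2 (1.71, adjusted p = 0.00193) and Ccnd1 (0.72, adjusted p = 0.00465) rose, as did the cytokine Il15 (2.27, adjusted p = 0.0237), whose call was lost without P9 replicate 1, 2 or 3 or P3 replicate 1, 2 or 3 (adjusted p 0.0675 to 0.0962), with no filter (adjusted p = 0.0522) and with voom (adjusted p = 0.0531). In P9 over FFSS, 2 (5%) were called higher and 25 (62.5%) lower, where 16.1% and 15.3% of all tested genes were, and without the same 5 genes 20 of 35 were lower. The log2 fold change was -6.25 for Cxcl1 (adjusted p = 3.81e-06), -5.90 for Ccl2 (adjusted p = 2.04e-06), -4.79 for Ptges (adjusted p = 2.30e-05) and -4.60 for Mmp3 (adjusted p = 7.82e-05). It was -2.45 for Gadd45a (adjusted p = 7.63e-05) and 2.08 for Ccnd1 (adjusted p = 1.03e-05). The count higher was 1 without any single library other than FFSS replicate 1 (10.04 to 13.7% of all genes then tested). It was 3 without FFSS replicate 1 (23.7%). Irf1 and Sqstm1 belong to both further lists.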

How the data were processed

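Polyadenylated RNA of 9 libraries was analysed from a deposited table of FPKM, in which the authors scaled fragments by gene length and library size. HISAT2 2.0.5, featureCounts 1.5.0-p3 and the build Rnor_6.0 are named in the submitters' processing notes, without settings. FPKM times gene length was a whole multiple of a step per library for 100% of values (tolerance 0.01 of a step), which gave the fragments behind each value. Of 34267 genes, 12299 were at 0 in every library. A gene with 0 fragments may still have had up to 3 (counting error only). The 13059 genes that reached 1 FPKM in 3 or more libraries were fitted on log2(FPKM + 1). The fit used limma 3.58.1 (R 4.3.3), the mean of each group, every library and an expression trend (6 residual and 2.93 prior degrees of freedom). Tests were two-sided with Benjamini-Hochberg adjustment over all genes tested and a threshold of 0.05. The fit was tested on simulated data. Tables and figures used Python 3.11.15, NumPy 2.4.6, pandas 2.3.3 and matplotlib 3.10.9.

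The members and gene lists were chosen with earlier results of these data known. Values per library are given for members called in any comparison and for Tlr2, Tlr3, Tlr4, Myd88, Cd14, Nfkbia, Nfkb1, Nfkb2, Rela, Relb, Tnfaip3, Icam1, Vcam1 and Tnf. Other members are given by means. From each further list, up to 6 called genes with the smallest adjusted p per comparison are named. Duplicated symbols were reduced to the one with the highest mean FPKM. Promoter windows came from RefSeq (GRCr8), matched by symbol, and no gene coordinate was converted between builds. Alternatives were a pseudocount of 0.1, no filter, a filter of 5 FPKM, libraries rescaled to one total, the replicate number as a block, only the 2 groups compared, no expression trend, leaving out each library and, on the recovered fragments, voom (limma).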

Additional observations from a re-analysis of the deposited data

How the results depend on the processing

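Counting each member or named gene once per comparison and alternative, 1577 refitted values kept their side of the threshold. Of the others, 168 lost the call, 18 gained one and 0 calls reversed direction. Values called in neither fit were counted as kept whatever their direction. The fold change of Tnip1 in P9 minus FFSS, for example, was -0.64 with all libraries and 0.006 without FFSS replicate 1. With all 9 libraries, calls held under every setting in which the gene was tested for 15 of the 26 members higher in FFSS than in P3, for 2 of the 3 lower in P9 than in P3 (Relb and Tnfaip2), and for 19 of the 27 lower in P9 than in FFSS. Leaving out 1 library gave 15 to 26 members higher and 0 lower in FFSS over P3, 0 to 1 higher and 2 to 4 lower in P9 over P3, and 0 to 1 higher and 18 to 27 lower in P9 over FFSS. In these fits, 5.09 to 19.3% of all genes then tested were higher in FFSS over P3. In P9 over P3, 2.35 to 9.53% were higher and 1.99 to 7.78% lower. In P9 over FFSS, 9.25 to 21.96% were lower. Irak4, the 1 member higher in P9 than in FFSS, lost its call with no filter, the replicate block or only the 2 groups compared. With a filter of 5 FPKM it was not tested. With only the 2 groups compared, 1 member, Irak2, was higher in P9 than in P3, where 11.1% of all genes then tested were. Cd14 was then called lower as well. Rescaling all libraries to one total moved the median of all genes by -0.11 in FFSS minus P3 and by 0.10 in P9 minus FFSS. The share of all calls that were higher then fell to 36.2%, against 52.1%, in FFSS over P3, and was 63.7%, against 51.3%, in P9 over FFSS. Of the members, 19 were then higher in FFSS than in P3 and 22 lower in P9 than in FFSS. Over all tested genes, libraries with the same replicate number did not deviate together (r -0.04 to 0.03 over 9 pairs). This does not tell if such libraries shared a rat, a culture or a batch. The replicate block gave 24 members higher in FFSS than in P3, 2 lower in P9 than in P3 and 24 lower in P9 than in FFSS. Of all genes tested with it, 9.22%, 3.31% and 13.7% were, in the same order. With the block, Traf3, Birc2 and Nfkb2 lost their calls and Tnfrsf1b gained one (adjusted p = 0.0439) in FFSS over P3, Bcl3 lost its call in P9 over P3, and Irak4, Traf3, Traf6 and Nfkb2 lost theirs in P9 over FFSS (adjusted p of 0.0513 to 0.0866 for the lost calls). The cause of these changes was not tested. At 13264930 to 15323790 fragments per library, depth limits Bcl3, Vcam1 and Tnf, and with 3 libraries a group a missed call does not show equal levels.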
